A study of Arabidopsis thaliana with 6 samples.

Results

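The probe sets described here are those whose signal differed in the same direction between cadmium-treated and control roots of Arabidopsis thaliana in every one of 3 pairs of arrays. They were chosen on their measured values. A probe set qualified if its mean signal over 6 arrays was at least 150 and its difference, cadmium against control, was at least 1.5-fold and of one direction in 3 of 3 pairs, where a pair is the cadmium and the control array with the same replicate number in their titles. Genes whose symbol begins with GST, UGT, XTH or EXP were left out, which removed 1 probe set, that of GSTU20. Of 22746 probe sets that are not array controls, 12590 had the required mean signal and 44 met the rule, 23 of them higher and 21 lower on the cadmium arrays. Of the 44, 21 carried 1 gene in the array annotation, 5 carried several genes and 18 carried no gene.

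The cadmium group held roots of 4-week-old Col-0 plants in hydroponic culture given 200 µM cadmium for 6 h, and the control group held roots of such plants without cadmium. All plants grew at 28 °C with 16 h of light and 8 h of dark. Biotin-labelled RNA of each sample was read on 1 Affymetrix ATH1 array, 3 per group, and the titles call these biological replicates. Signals are linear MAS5 units, which summarise the short probes of a set, and 3 arrays per group limit how precise any value can be.

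Cadmium is a toxic metal that plants do not need. It binds thiols, displaces other metals from proteins and disturbs the redox balance of the cell, and roots meet it first. Plants answer with glutathione-derived chelators, with changed metal transport and with general stress programmes that also serve heat, cold, drought and pathogens. Growth and protein synthesis are costly and are often adjusted under such stress.

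The array pair of replicate 2 went against the others for most genes. In all 3 pairs at once, 2126 probe sets passed the 1.5-fold limit in either direction. Of these, 2064 (97.1%) had pairs 1 and 3 alike and pair 2 opposed, 1027 of them higher and 1037 lower on the cadmium arrays of pairs 1 and 3. Only 45 (2.12%) were alike in 3 of 3 pairs before the symbols were left out, and the other 17 had another pattern. The arrays of replicate 2 were also scaled lower, with a trimmed mean signal of 227 on the cadmium and 216 on the control array, against 500.0 on each of the others. The levels of replicate 2 therefore cannot be set beside those of replicates 1 and 3, and each difference was taken within a pair. Arrays are named by their labels throughout, and whether the labels of replicate 2 are exchanged cannot be told from these values. With the sign of pair 2 turned, 0 of the 44 members would be alike in 3 of 3 pairs, and the 2064 opposed probe sets would be.

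**Figure D1:**
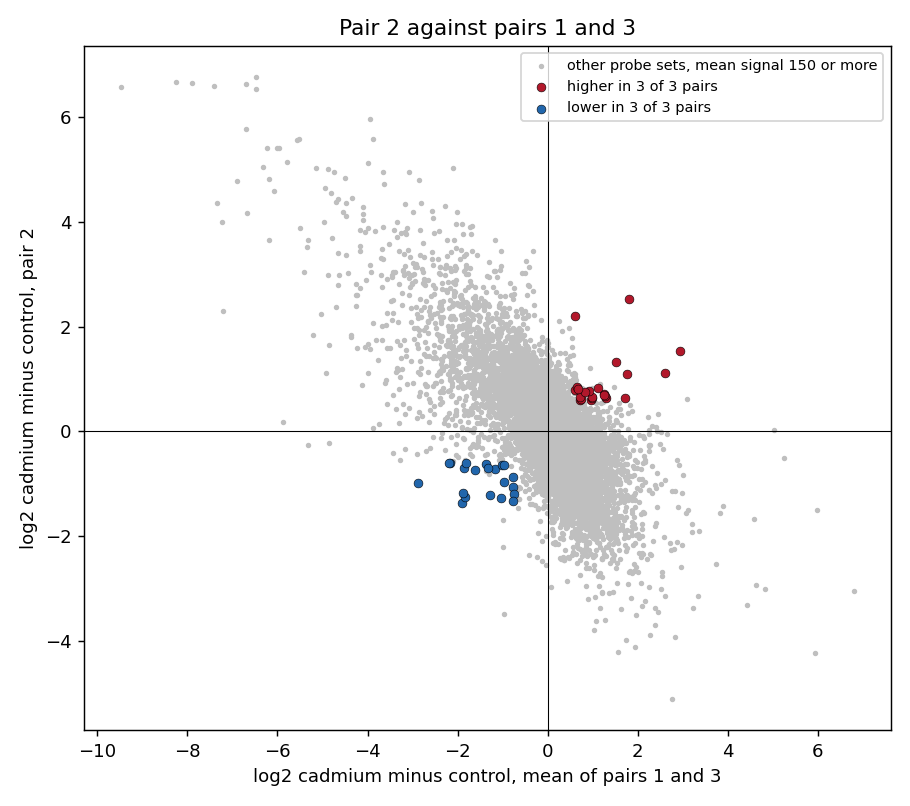
The log2 difference of pair 2 (vertical axis) is plotted against the mean log2 difference of pairs 1 and 3 (horizontal axis) for the 12590 probe sets with a mean signal of at least 150. The grey cloud runs from upper left to lower right, and the 23 probe sets higher (red) and 21 lower (blue) in 3 of 3 pairs lie in the other quadrants at its edge.

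The rule used every array, so no test of cadmium against control is given for these probe sets, and their differences are a description. As background, limma over all 6 arrays called 0 of 15922 probe sets at an adjusted p under 0.05 (0% called), with 83 at an unadjusted p under 0.05. That count depended on replicate 2, since 726 were called without its arrays and 1562 with array weights that gave them little weight. Taken singly, pairs 1, 2 and 3 had 26.2%, 17.4% and 19.8% of the 12590 at least 1.5-fold higher with cadmium. At least 1.5-fold lower were 13.9%, 25.2% and 14.1%. The share meeting the rule was 0.183% of the 12590 for higher and 0.167% for lower. The members were mostly near its limits. The smallest of the 3 sizes had a median of 0.68 over the 44 members and of 0.91 over the 2064 opposed probe sets. A size of at least 1 (a 2-fold difference) in each pair was seen in 8 of 44 members (18.2%) and in 870 of the 2064 (42.2%).

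**Figure D2:**
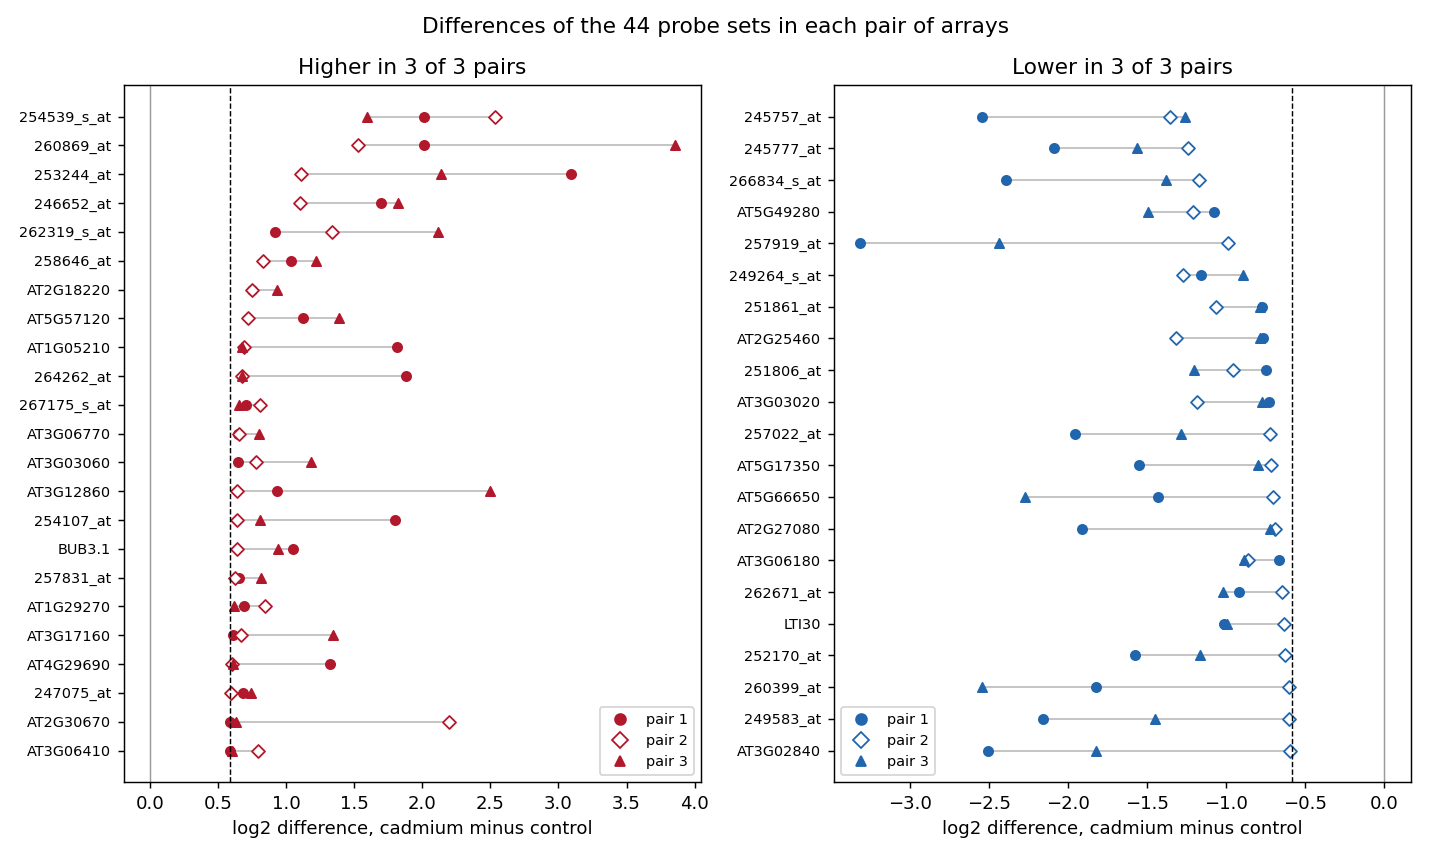
The log2 difference, cadmium minus control, is plotted in each pair (symbols) for the 23 probe sets higher and the 21 lower in 3 of 3 pairs, ordered by their smallest difference, with the 1.5-fold limit as a dashed line and a grey line joining the 3 pairs. Several probe sets have all 3 pairs close to the limit, while the pairs of 260869_at and 257919_at spread over 2.32 and 2.33 log2 units.

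A measure of RNA quality also differed in one direction in all pairs. One set of ubiquitin control probes had a 3' over 5' ratio that was higher with cadmium by 0.31, 0.38 and 0.30 (log2) in pairs 1, 2 and 3, and another set by 0.38, 0.21 and 0.08. For actin and GAPDH the sign of this difference varied between pairs in each of 2 sets of probes. The ratios themselves were higher on both arrays of replicate 2 than on any other array in each of these sets. In one actin set the log2 ratio was 3.22 on cadmium and 2.05 on control array 2, against 0.07 to 0.34 on the others. In one GAPDH set it was 1.67 and 2.02 in the same order, against -0.60 to -0.19. The shoot genes RCA and PRK, the photosynthetic enzymes rubisco activase and phosphoribulokinase, were the 2 of 9 shoot markers with a named probe set, and their signs depended on the scaling. RCA differed by 0.18, 0.24 and 0.15 (log2) in pairs 1, 2 and 3 as deposited, and by -0.17, 0.33 and -0.02 after the median of each array was subtracted. PRK differed by 0.73, 0.31 and 0.09 as deposited and by 0.39, 0.40 and -0.07 after centring, with both signals of pair 2 under 62.0, the 30th percentile of signals over the 6 arrays. On the lower scaled arrays of replicate 2, 37.0% (cadmium) and 37.1% (control) of probe sets that are not array controls were under 62.0. On the other arrays 23.4% to 28.0% were. The part of these measures in the differences below was not tested. EXPA7, an expansin of root hairs and the only 1 of 13 root markers with a named probe set, had signals of 329, 127 and 752 on the cadmium arrays and 204, 164 and 415 on the control arrays, all above 62.0.

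Among the 23 probe sets higher in all pairs, 12 were named with 1 gene, 3 with several and 8 with none. The median log2 difference was 0.93 in pair 1, 0.75 in pair 2 and 0.93 in pair 3, beside medians of 0.24, -0.14 and 0.16 over all 12590. The named genes fall under nuclear and nucleolar proteins, cell division, mitochondria and membranes, cell walls and metabolism, an ordering made after the values were seen and not tested. In bulk roots, more cells of a type and more transcript per cell cannot be told apart.

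The first of these genes encode proteins of the nucleolus, where ribosomal RNA is made and ribosomal subunits are assembled. AT2G18220 encodes a protein of the Noc2p family, which in yeast carries ribosomal precursors out of the nucleolus. Its signal was 376, 114 and 218 on cadmium arrays 1, 2 and 3, against 225, 67.8 and 114 on the control arrays. Each cadmium array was above its own control. As deposited, the 3 log2 differences were close at 0.75, 0.75 and 0.93, and their mean was 0.81 ± 0.11 (SD, n = 3 pairs), or 1.75-fold. After centring they were 0.40, 0.85 and 0.76. AT5G57120 encodes a nucleolar phosphoprotein related to Nopp140, which is a chaperone of small nucleolar ribonucleoproteins. Signals of 415, 189 and 364 on the cadmium arrays stood against 191, 115 and 139 on the control arrays, a mean log2 difference of 1.07 ± 0.34 (SD, n = 3 pairs). The groups overlapped only in that cadmium replicate 2, of the lower scaled pair, lay under control replicate 1. AT3G12860 encodes a NOP56-like protein, a core component of the particles that methylate ribosomal RNA. It had signals of 294, 175 and 257 on the cadmium arrays and 154, 112 and 45.4 on the control arrays. All cadmium arrays were above all control arrays, and the log2 differences were 0.93, 0.64 and 2.50, with the widest in pair 3, where the control signal did not reach 62.0.

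Other genes of ribosome assembly were looked up after these values were seen. Of 11 listed genes, 5 had a named probe set and all 5 had enough signal. The 3 above met the rule, and the other two had small differences in pair 2. AT3G05060, a second gene for a NOP56/NOP58-type protein, had log2 differences of 0.60, 0.10 and 0.54 in pairs 1, 2 and 3. RBL, another Noc2p-family gene, had 0.31, -0.01 and 0.60. Because the list was made around the members, its counts support nothing beyond these values.

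BUB3.1 encodes a protein of the spindle checkpoint, which holds mitosis until chromosomes are attached. Its signal was 426, 314 and 180.3 on cadmium arrays 1, 2 and 3, against 206, 202 and 94.2 on the control arrays. The pairs gave log2 differences of 1.05, 0.64 and 0.94, a mean of 0.87 ± 0.21 (SD, n = 3 pairs). Of 4 other listed checkpoint genes, BUB3.2 and BUBR1 had a named probe set, and neither had a mean signal of 150. BUB3.2 had log2 differences of 0.46, 0.15 and -0.41 in pairs 1, 2 and 3. BUBR1 had 3.56, -0.58 and 2.24, with cadmium array 2 and control arrays 1 and 3 under 62.0. AT3G06410 encodes a zinc finger protein of the CCCH type, a class that binds RNA or DNA. It had signals of 923, 379 and 768 on the cadmium arrays and 613, 219 and 506 on the control arrays. It was the member nearest to the limit, with differences of 0.59, 0.79 and 0.60.

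AT3G03060 encodes an AAA-type ATPase related to the mitochondrial ATAD3 proteins. Its cadmium arrays gave 401, 127 and 213, and its control arrays 257, 74.2 and 93.8, so that both groups spanned a wide range and only the pairing separated them (mean log2 difference 0.87 ± 0.28, SD, n = 3 pairs). AT1G05210 encodes a predicted membrane protein of the TMEM97 type. Signals of 528, 418 and 571 on the cadmium arrays were all above the 150.1, 259 and 358 of the control arrays. After centring these groups overlapped. The difference was widest in pair 1, at 1.81, and was 0.69 and 0.67 in pairs 2 and 3.

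AT3G06770 belongs to the pectin-degrading polygalacturonase family of cell wall enzymes. It had 293, 131 and 294 on the cadmium arrays and 187, 83.7 and 169 on the control arrays, with log2 differences of 0.65, 0.65 and 0.80. As deposited, these were among the closest to one another of all members (mean 0.70 ± 0.09, SD, n = 3 pairs). After centring they were 0.30, 0.74 and 0.63. AT4G29690, of the alkaline phosphatase-like family, gave 326, 219 and 319 on the cadmium arrays, all above the 130.4, 145 and 209.7 on the control arrays. After centring these groups overlapped. AT2G30670, a short-chain dehydrogenase of the tropinone reductase type, had 489, 128 and 128 on the cadmium and 325, 27.8 and 82.6 on the control arrays. Its difference of 2.20 in pair 2 rested on a control signal under 62.0, and the other pairs gave 0.59 and 0.63. AT1G29270 and AT3G17160 are given without a role. AT1G29270 had log2 differences of 0.69, 0.85 and 0.61, with the control array of replicate 2 under 62.0. AT3G17160 had 494, 225 and 710.1 on the cadmium arrays and 324, 142 and 279.6 on the control arrays.

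**Figure D3:**
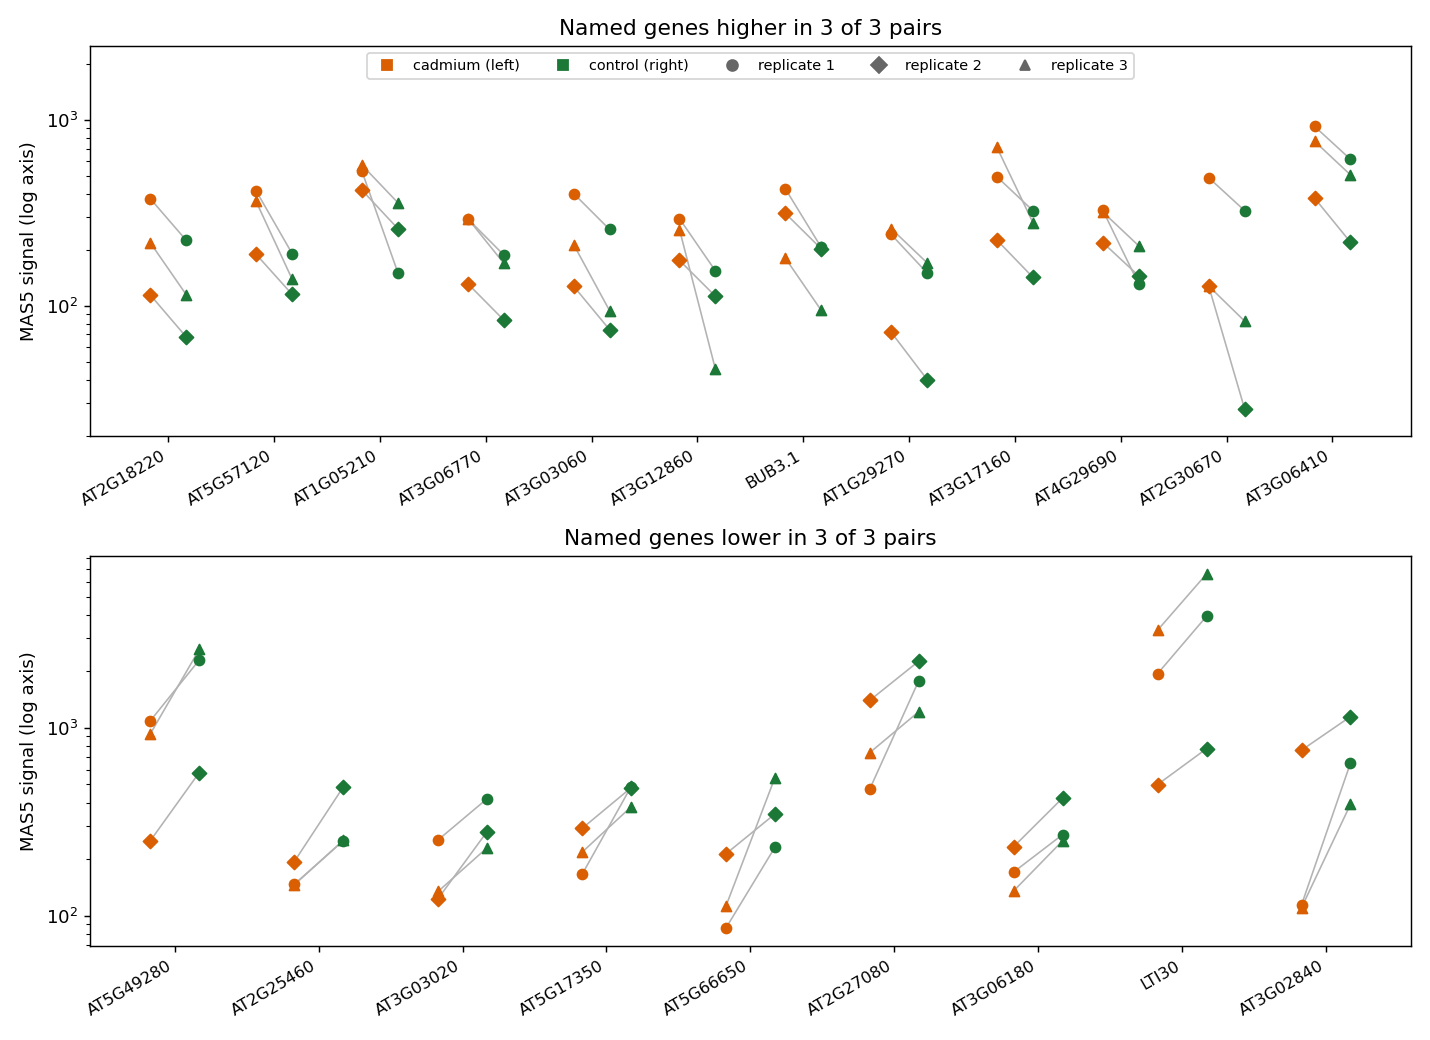
The MAS5 signal (log axis) of the 12 named genes higher and the 9 named genes lower in 3 of 3 pairs is plotted for each array, with cadmium at the left and control at the right of each gene and lines joining same-numbered arrays. Every line falls to the right in the upper panel and rises in the lower one, as the rule requires, while arrays of one group often lie far apart.

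The widest differences upward belonged to probe sets without a single named gene. Probe set 260869_at had a signal of 5831 on cadmium array 1 and 82.9 and 134 on cadmium arrays 2 and 3, against 1442, 28.7 and 9.29 on the control arrays. The spread between replicates of one group was thus wider than the spread within any pair. Probe set 253244_at gave 107, 103 and 554 on the cadmium arrays and 12.6, 47.7 and 126 on the control arrays. Probe set 246652_at gave 481, 135 and 1172 on the cadmium arrays and 149, 62.9 and 331 on the control arrays, with no array under 62.0. Probe set 254539_s_at, which the annotation pairs with several genes, had 13.8 on cadmium and 3.43 on control array 1, where the difference of 2.01 lay wholly among dim signals. It gave 307 on cadmium and 53.0 on control array 2, and 1168 on cadmium and 386 on control array 3. Of the remaining 7 unnamed or shared probe sets higher in all pairs, 258646_at had the widest smallest difference without shared genes, with 768, 225 and 514 on the cadmium arrays and 375, 127 and 221 on the control arrays. In all, 7 of the 23 had at least 1 array under 62.0, and 4 (254539_s_at, 260869_at, 254107_at and AT1G29270) no longer met the rule when lower signals were set to that value.

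Among the 21 probe sets lower in all pairs, 9 were named with 1 gene, 2 with several and 10 with none. The median log2 difference was -1.55 in pair 1, -0.86 in pair 2 and -1.20 in pair 3. Pair 2 gave the smallest size for 13 of the 21, pair 1 for 6 and pair 3 for 2. The median of their mean signal was 452, beside 454 over all 12590 and 237 for the higher members, and 1 of the 21 had an array under 62.0. The named genes are given from stress proteins and calcium handling to wall and membrane proteins and genes with no assigned role.

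LTI30, also called XERO2, encodes a dehydrin, a hydrophilic protein that accumulates in cold and drought and binds membranes. It had signals of 1945, 499 and 3315 on cadmium arrays 1, 2 and 3 and 3930.3, 775 and 6602 on the control arrays. The level varied over 6 arrays far more than within a pair, and the log2 differences were -1.01, -0.63 and -0.99 (mean -0.88 ± 0.21, SD, n = 3 pairs). Of 8 dehydrin genes listed after these values were seen, 4 had a named probe set and 2 enough signal. The other of these, COR47, had differences of -1.29, 0.55 and -0.80 in pairs 1, 2 and 3, so pair 2 was opposed.

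AT3G02840 encodes an armadillo-repeat protein known as an immediate-early gene of the response to fungal elicitors. It had 114, 760.4 and 110.4 on the cadmium arrays and 649, 1148 and 392 on the control arrays. Its differences were wide in pairs 1 and 3, at -2.51 and -1.83, and at the limit in pair 2, at -0.59. AT2G27080 encodes NHL13, a membrane-anchored protein of the NDR1/HIN1-like family that acts in defence. Signals of 473, 1401 and 738 on the cadmium arrays stood against 1783, 2265 and 1219 on the control arrays. The difference was -1.91 in pair 1 and -0.69 and -0.72 in the others. On both genes the cadmium and the control array of replicate 2 were each the highest of their group, although these arrays were scaled lower.

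AT5G66650 encodes a protein of the mitochondrial calcium uniporter family, which forms calcium channels of organelles. Its signal was 85.9, 213 and 112 on the cadmium arrays and 231, 348 and 542 on the control arrays. As deposited, all 3 cadmium arrays were below all control arrays, but the groups overlapped after centring. The log2 differences were -1.43, -0.70 and -2.27 (mean -1.47 ± 0.78, SD, n = 3 pairs). Of 5 other listed uniporter genes, 1 had a named probe set, and its mean signal was under 150. This gene, AT1G09575, had log2 differences of 0.41, -0.18 and -0.03 in pairs 1, 2 and 3, with no array under 62.0.

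AT5G49280 encodes a hydroxyproline-rich glycoprotein, a class found in cell walls. It was the named gene with the widest smallest difference in either direction, with 1089.8, 250.4 and 929 on the cadmium arrays and 2297, 578 and 2613 on the control arrays. The 3 differences were -1.08, -1.21 and -1.49, a mean of -1.26 ± 0.21 (SD, n = 3 pairs), or 2.39-fold lower. Within replicates 1 and 3 both cadmium arrays were below both control arrays. AT2G25460, a protein with a C2-type lipid-binding domain, gave 147, 194 and 146 on the cadmium arrays, all below the 250.0, 483 and 251 of the control arrays. Its groups overlapped after centring, and its difference was widest in pair 2, at -1.32. AT3G06180 belongs to the superfamily of ribosomal protein L34e. It had 171, 233 and 136 on the cadmium arrays and 270.4, 423 and 251 on the control arrays. Its groups did not overlap as deposited but did after centring, and the differences were close together at -0.66, -0.86 and -0.89. AT5G17350 and AT3G03020 are given without a role. AT5G17350 had 166, 291 and 218 on the cadmium arrays, all below the 485, 479 and 379 on the control arrays. After centring its groups overlapped. AT3G03020 had 253, 123 and 135 on the cadmium arrays and 419, 280.1 and 229.8 on the control arrays.

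Probe sets without a named gene again gave the widest differences. Probe set 257919_at had signals of 237, 709 and 358 on the cadmium arrays, all below the 2364, 1405 and 1935 of the control arrays, a mean log2 difference of -2.25 ± 1.18 (SD, n = 3 pairs). Probe set 245777_at had 139, 314 and 235 on the cadmium arrays, all below the 592, 742 and 693 of the control arrays. Its differences were -2.09, -1.24 and -1.56, and its groups overlapped after centring. Probe set 245757_at had the widest smallest difference of the lower members, 1.26 in size, yet its groups overlapped. It gave 336, 268 and 104 on the cadmium arrays and 1956, 685 and 249 on the control arrays. Probe set 266834_s_at, shared by several genes, had 278, 601 and 232 on the cadmium arrays and 1459, 1355 and 604 on the control arrays. These groups were just short of overlapping as deposited and overlapped after centring.

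Since the arrays of replicate 2 were scaled lower, overlap of the groups said little about single genes. As deposited, all cadmium arrays were above all control arrays for 3 of the 23 higher members, against 0.405% of all 12590 probe sets. All cadmium arrays were below all control arrays for 10 of the 21 lower members, against 0.365%. After the median of each array was subtracted, these counts were 8 of 23 (1.19% of all) and 7 of 21 (1.96% of all). The rule used the same contrast, so nothing is read from these shares. Of the named genes whose groups were apart as deposited, only AT3G12860 stayed so after centring. AT1G05210, AT4G29690, AT5G66650, AT2G25460, AT3G06180 and AT5G17350 did not. The groups of AT5G57120, AT3G06770, AT3G17160, AT3G06410 and AT5G49280 were apart only after centring. Of the unnamed probe sets described above as apart, 257919_at stayed so, and 245777_at and 266834_s_at did not.

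Scaling bore more on the higher than on the lower members. Median centring moved the median difference of the 12590 probe sets from 0.24 to -0.10 in pair 1, from -0.14 to -0.05 in pair 2 and from 0.16 to -0.01 in pair 3. Relative to the centred arrays 9 of the 23 higher and 15 of the 21 lower members still met the rule, and after quantile normalization 10 and 18 did. No member changed direction in any pair under either. AT5G57120 and BUB3.1 were the named higher genes that met the rule under both, and AT3G12860 met it under centring alone. AT2G18220, AT3G06770, AT3G03060 and the other named higher genes fell short under both, each with a centred difference in pair 1 or pair 3 of 0.24 to 0.51. Of the named lower genes, LTI30 and AT3G02840 fell short under centring, with differences of -0.54 and -0.50 in pair 2, and met the rule after quantile normalization. The other 7 met it under both.

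**Figure D4:**
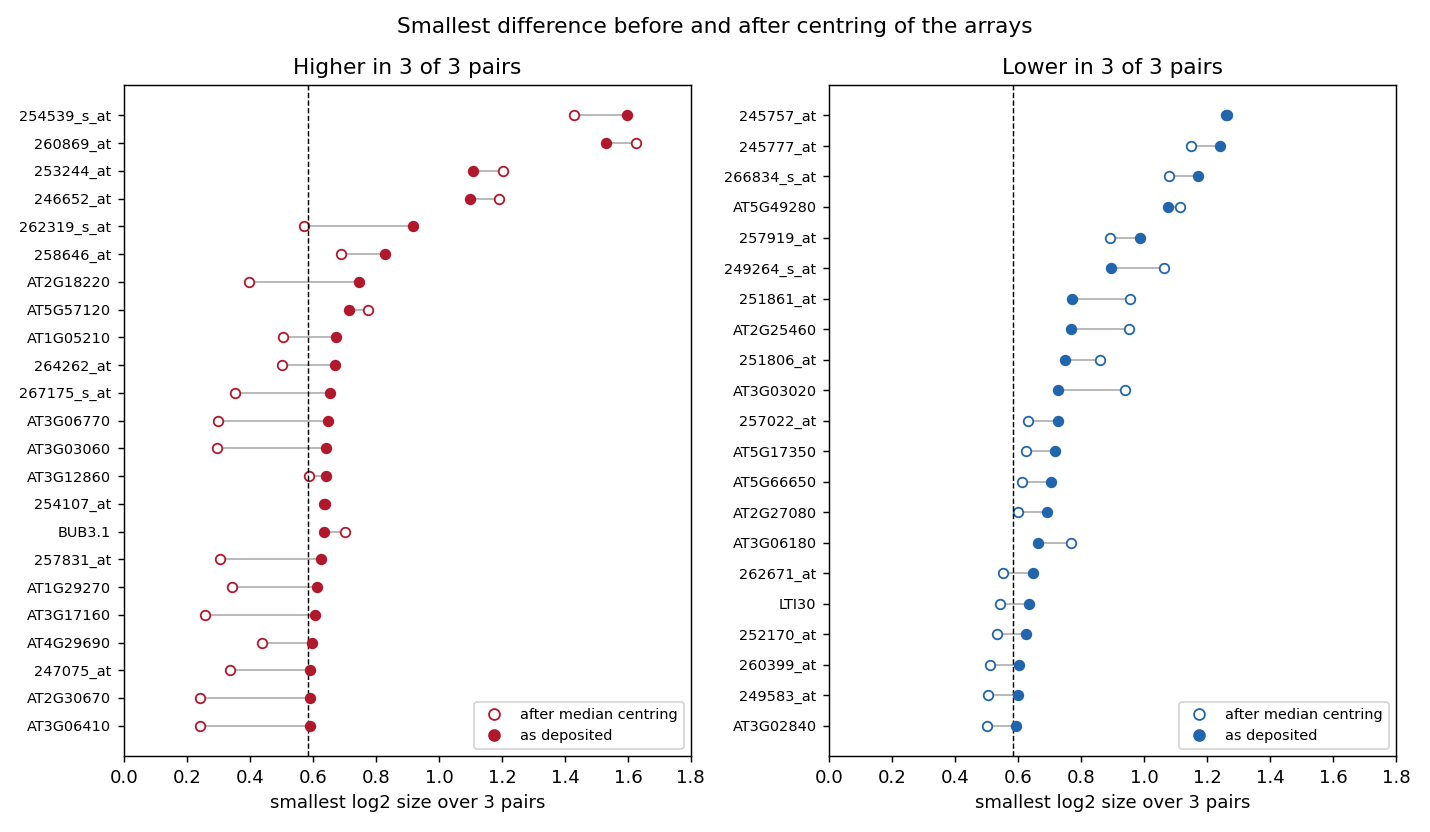
The smallest log2 size over 3 pairs is plotted for each member as deposited (filled) and after the median of each array was subtracted (open), with the 1.5-fold limit as a dashed line. Of the higher members 14 of 23 move below the limit, and of the lower members 6 of 21.

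At the limit, the members just inside on the higher side were AT3G06410 and AT2G30670, each with a smallest difference of 0.59, and just outside were 248727_at and AT5G36270, each with 0.55. On the lower side AT3G02840 and 249583_at were just inside, with sizes of 0.59 and 0.60, and AT4G33420 and 248611_at just outside, with 0.58 and 0.57. The differences of AT4G33420 were -0.65, -1.07 and -0.58 in pairs 1, 2 and 3, much like those of several members.

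By position, 10 of the 21 named members (47.6%) lay on chromosome 3, 6 of the 12 higher and 4 of the 9 lower, whereas 20.1% of the 6629 probe sets with 1 placed gene and enough signal did. Chromosomes 2 and 5 held 4 each, chromosome 1 held 2 and chromosome 4 held 1. This was seen after the members were known and is given with no test.

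Few genes with known parts in cadmium handling had a named probe set, and none of those few met the rule. The annotation gave no gene for 5651 of the 12590 probe sets and for 18 of the 44 members. Whether such genes are among these was not examined. Of 9 genes listed for glutathione and phytochelatins 2 were named, both for glutathione reductases, which regenerate the thiol, and none for their synthesis. GR1, the cytosolic enzyme, had log2 differences of -1.31, 1.96 and -0.91 in pairs 1, 2 and 3, and the plastid enzyme GR had 0.16, -0.12 and 0.15. Of 17 metal transport genes only ZIP9, a zinc transporter, was named, with differences of 0.04, 1.51 and -1.26. The metallothionein MT1C, 1 of 5 listed, had 0.18, -0.14 and -0.09. The clock gene GI, the only 1 of 11 listed with a named probe set, had 0.03, 0.06 and -0.33, each smaller in size than the 1.5-fold limit. Of 8 reference genes 4 had a named probe set, and 0 met the rule. Their median log2 differences were 0.07, -0.21 and 0.19 in pairs 1, 2 and 3, beside 0.24, -0.14 and 0.16 over all 12590. By sign alone and at any size, pair 2 was opposed to pairs 1 and 3 in 4 of these 4 and in 63.0% of all 12590.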

How the data were processed

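The deposited values are linear intensities, 1 signal per probe set and array, and the submitters' processing notes name MAS5. Its version and scaling target are not given in the sources used here. Each of the 6 value columns entered. The titles gave groups and replicate numbers. The descriptions number the replicates otherwise but join the same arrays. What a shared number means is not stated, and deviations from the group means correlated with r = 0.11, -0.04 and 0.29 between same-numbered arrays 1, 2 and 3. Between arrays of different number, r ran from -0.36 (cadmium 3 with control 1) to 0.16 (cadmium 2 with control 1).

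Here 7 signals of 0, all on control replicate 2, took the lowest positive signal of that array, log2 was taken, and cadmium minus control was computed within pairs. The members and lists were chosen with earlier results of these data known. Every member with 1 gene is named, and others are given by probe set. P-values measure only the spread between these arrays. As background, limma 3.58.1 in R 4.3.3 (intensity trend, two-sided, Benjamini-Hochberg) was fitted to probe sets whose mean signal reached the 30th percentile. Fit and rule were also run on simulated data with independent noise and 200 changed probe sets. Those data had no opposed and no lower scaled pair, so nothing about the present arrays is read from them. Symbols were updated through gene identifiers to the TAIR10.1 RefSeq table, whose coordinates were not used. Of the 12590 probe sets, 6663 had 1 gene, 276 several and 5651 none. Promoter motifs were planned and are not analysed here. Alternatives were other signal minimums, other limits, quantile normalization, median centring, a floor, array weights, a replicate block and leaving out arrays.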

Additional observations from a re-analysis of the deposited data

Results flagged for a closer look

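Control probe sets for added bacterial transcripts lie outside the comparison of plant genes, and 5 of the 64 are given here, with more signal on the cadmium than on the control array of replicate 2. The signals there were 1795 on the cadmium and 247 on the control array for AFFX-LysX-3_at, and 3066 and 553 on the cadmium and control arrays for AFFX-r2-Bs-dap-3_at. AFFX-r2-Bs-lys-M_at had 789 on the cadmium and 59.1 on the control array, AFFX-r2-Bs-phe-3_at 1602 and 165, and AFFX-r2-Bs-thr-3_s_at 3860 and 484 in the same order. These 5 were picked because their deposited signals were at least 1.5-fold higher with cadmium in 3 of 3 pairs, but on the arrays of replicates 1 and 3 they were only 1.84 to 38.2, all under 62.0. With lower signals set to that value, pairs 1 and 3 gave log2 differences of 0, and 0 of the 64 met the 1.5-fold limit in 3 of 3 pairs. Their part in the differences of the plant genes was not tested.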

How the results depend on the processing

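The counts of members moved with each limit of the rule. With a mean signal of at least 100 there were 35 higher probe sets, and with 300 there were 11 higher and 12 lower. A size of at least 1 in each pair left 4 higher and 4 lower, and a size of 0.3 gave 177 and 86. The higher count was 12 after quantile normalization and 12 after median centring, with 10 and 9 of the 23 among them, whereas the lower count, at 28 and 29, stayed within 1.5 times of 21, with 18 and 15 of the 21 among them. Counts were also within that range for a floor at the 30th percentile, with no symbol left out, with the higher signal of each pair above the floor (chosen after seeing the data) and, for lower probe sets, at a minimum of 100. Leaving out 1 pair gave 51 to 1666 higher and 48 to 1304 lower. The upper ends were without replicate 2. Groups that did not overlap numbered 51 higher and 46 lower as deposited, and 150 and 247 after median centring, an alternative chosen after seeing the data. In limma over all 6 arrays 0 probe sets passed, also with a replicate block (0, with 193 at an unadjusted p under 0.05), with 1562 under array weights, whose fit stopped before converging and gave replicate 2 weights of 0.12 (cadmium) and 0.20 (control). Leaving out arrays gave 0 to 726. The 726 came without replicate 2, and 1 probe set passed without control replicate 1. The block compared cadmium with control within same-numbered arrays. Such arrays did not all deviate together, and what a shared number means is not stated.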
